A study of Zea mays with 10 samples.

Results

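The ligule and axillary bud regulators examined here are 5 maize transcription factor genes, *lg1*, *lg2*, *tb1*, *gt1* and *tga1*. They were chosen by name, through their gene identifiers, out of 109874 genes in the deposited expression table, by a rule that uses no measured value. *liguleless1* (*lg1*) encodes an SBP-box protein and *liguleless2* (*lg2*) a bZIP protein. *teosinte branched1* (*tb1*) encodes a TCP protein, *grassy tillers1* (*gt1*) a class I HD-ZIP protein and *teosinte glume architecture1* (*tga1*) an SBP-box protein.

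A grass leaf is divided into a distal blade and a proximal sheath, and the ligule and auricles form at the border between them. *lg1* is needed for ligule and auricle formation and *lg2* for placing the blade-sheath border. In the axil of each leaf an axillary meristem produces a bud, and *tb1* and *gt1* hold back the outgrowth of such buds, *gt1* acting downstream of *tb1* and in the response to shade. *tga1* controls the hardened fruit case of teosinte, and like *tb1* it is known for its part in maize domestication.

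Transcript levels were compared between apices of *lbl1* plants and of wild type (WT). The *lbl1* plants carry the *lbl1-rgd1* allele, labelled as genotype LBL1 -/-, which had been crossed at least 3 times into the inbred line B73, and they came from families in which the allele segregated. The WT samples are labelled as B73. Plants of both genotypes were 2 weeks old and had been kept at 28 °C for 16 h of light and at 24 °C for 8 h of dark. The tissue held the shoot apical meristem with no more than 5 leaf primordia, and 2 mRNA samples were sequenced per genotype. *leafbladeless1* (*lbl1*) encodes the maize SGS3 protein, which is needed to make trans-acting siRNAs, and its mutants form leaves with reduced adaxial, or upper, identity.

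The deposited table gives 1 pooled RPKM value per genotype, a read number per unit of transcript length and of sequenced, mapped reads, covering both samples. No standard deviation or interval between samples can be had from these RPKM values, and the results of the authors' own test in the same table were not used here. The differences below are therefore given without a statement on whether they exceed the spread between samples. Folds are *lbl1* over WT as deposited. Each log2 fold change is set relative to the median gene, since the 24760 genes at 1 RPKM or more in both genotypes had a median log2 ratio of -0.10. A gene was counted as higher or lower in *lbl1* when it was past 2-fold relative to the median gene and at 1 RPKM or more in either genotype. In whole apices, fewer cells of a type and less RNA per cell cannot be told apart.

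The *lbl1* transcript itself (GRMZM2G020187, chromosome 6, 17165362 to 17171793 on B73 RefGen_v2) was at 226 RPKM in *lbl1* and 301 RPKM in WT, so that the mutant still had the transcript. All 9 matched markers of meristem and leaf primordia were at 1 RPKM or more in either genotype, with summed levels of 387 RPKM in *lbl1* and 390.5 RPKM in WT. Single markers differed in both directions, with 1 of the 9 higher and 2 lower. Of the 5 inflorescence markers only the floral MADS-box gene *zag1* reached 1 RPKM, with 5.89 RPKM in *lbl1* and 0.847 RPKM in WT. The list summed to 6.67 RPKM in *lbl1* and 1.52 RPKM in WT, so that *zag1* made up most of the *lbl1* sum. *ra1* and *zap1* were listed at 0 in WT and were at 0.142 and 0.151 RPKM in *lbl1*. *ra3* was at 0.450 RPKM in *lbl1* and 0.167 RPKM in WT, and *zmm4* differed the other way, at 0.036 RPKM in *lbl1* and 0.501 RPKM in WT. Of the 5 endosperm genes, *o2* and *fl2* were at 0.069 and 0 RPKM in *lbl1* and both at 0 in WT, while 3 reached 1 RPKM. These were *bt2* (34.4 RPKM in *lbl1*, 25.0 RPKM in WT), *wx1* (3.94 and 1.44 RPKM, counted as higher) and *sh2* (0.790 and 1.26 RPKM). The list summed to 39.2 RPKM in *lbl1* and 27.7 RPKM in WT. Of the root genes 1 of 2 reached 1 RPKM, with sums of 31.9 RPKM in *lbl1* and 24.4 RPKM in WT. Genes of the differentiated leaf summed to 158 RPKM in *lbl1* and 116 RPKM in WT. Of these 6 genes 5 reached 1 RPKM in either genotype, with 3 higher and none lower. Among all genes 13.7 percent were higher and 11.4 percent lower. *ppdk1* (GRMZM2G306345) was at 62.2 RPKM in *lbl1* and 0.441 RPKM in WT. The most abundant, a *pep1* entry (GRMZM5G899080) with a locus of only 849 bp, differed the other way, at 70.5 RPKM in *lbl1* and 103.6 RPKM in WT. Both values are part of the leaf sums. The other *pep1* entry (GRMZM2G083841), with a locus of 5438 bp, was listed at 0 in both genotypes, so the level of *pep1* is uncertain. The part of these markers in the results below was not tested.

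The 5 genes lay between 0.140 and 8.83 RPKM in *lbl1* and between 0.341 and 4.70 RPKM in WT. For comparison, the median of the genes at 1 RPKM or more was 11.8 RPKM in *lbl1* and 12.6 RPKM in WT. In *lbl1* the order of the levels was *gt1*, *lg2*, *tga1*, *tb1* and *lg1*, with *tga1* at 1.30 RPKM and *tb1* at 1.29 RPKM almost level. In WT the order was *lg2*, *tga1*, *gt1*, *lg1* and *tb1*. Which neighbours in these orders differ beyond the spread between samples cannot be said from 1 value per genotype.

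Of the 5 genes, 4 were at 1 RPKM or more in either genotype and 3 in both. Past 2-fold, *gt1* and *tb1* were higher in *lbl1*, and 0 of the 5 were lower. Among all 29929 genes at 1 RPKM or more in either genotype, 13.7 percent were higher and 11.4 percent lower by the same rule. At the levels of these regulators folds that large were more frequent, and of the 14651 such genes with a mean of 0.5 to 10 RPKM 20.8 percent were higher and 18.6 percent lower. That range of levels was chosen after the data had been seen. Without the scaling to the median gene *tga1* also passed, and the split was then 2 higher and 1 lower.

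**Figure D1:**
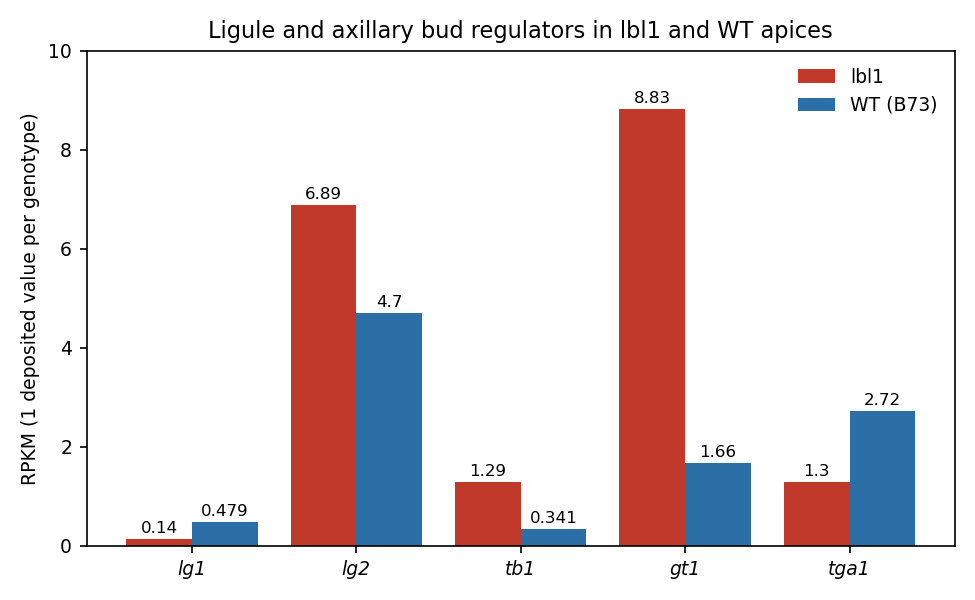
Deposited RPKM of the 5 genes, with 1 bar per genotype (*lbl1* red, WT blue), each pooled over 2 samples and therefore without error bars. *gt1* stood at 8.83 RPKM in *lbl1* and 1.66 RPKM in WT, while *lg1* was below 1 RPKM in both genotypes.

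The ligule genes are described first. *lg2* (GRMZM2G060216, chromosome 3, 176800215 to 176808889) was at 6.89 RPKM in *lbl1* and 4.70 RPKM in WT. This is a 1.47-fold difference and a log2 fold change of 0.65, below the 2-fold limit, and 18.5 percent of the 28021 genes with a fold were at least as far up. *lg2* was the most highly expressed of the 5 genes in WT, above 27.3 percent of the genes that reached 1 RPKM in WT.

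*lg1* (GRMZM2G036297, chromosome 2, 4259524 to 4263201) was at 0.140 RPKM in *lbl1* and 0.479 RPKM in WT. The *lbl1* value was the lower one, at 0.292 times that of WT, or a log2 fold change of -1.68. Because both values were under 1 RPKM, *lg1* was not counted as past 2-fold. The fold also depended on how such low values are handled, and adding 1 RPKM to both gave a log2 fold change of -0.27. Cuffdiff had marked *lg1* and *tb1* as having too few alignments for its own test, and among genes with enough the higher of the values was never under 1.71 RPKM.

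The number of reads behind these low values can be bounded in *lbl1*. In loci of 400 to 2500 bp the *lbl1* values, multiplied by the length of the locus less 201 bases, piled up at whole multiples of 0.0390 RPKM kb, which was taken as the worth of 1 read. For *lg1*, whose locus spans 3678 bp including any introns, this allowed at most about 12 reads in both *lbl1* libraries together. The exact 95 percent Poisson interval around 12 reads runs from 6.20 to 21.0 and covers counting error only. As 12 is an upper bound, the lower end is not a lower limit for the reads. Such steps are given for the *lbl1* values only, and no read number is given for WT.

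The bud genes were both higher in *lbl1*. *gt1* (GRMZM2G005624, chromosome 1, 23241091 to 23250032) was at 8.83 RPKM in *lbl1* and 1.66 RPKM in WT, which is 5.30-fold and a log2 fold change of 2.51. In *lbl1* it was above 42.8 percent of the genes that reached 1 RPKM in *lbl1*. In WT it was above 8.48 percent of those that reached 1 RPKM in WT. Of the genes with a fold, 3.05 percent were at least as far up as *gt1*. The annotated span of *gt1* is the same, base for base, as that of GRMZM2G005435, which was at 31.4 RPKM in *lbl1* and 55.1 RPKM in WT. GRMZM2G005435 differed the other way, 1.75-fold lower in *lbl1*, with a log2 fold change of -0.71. Reads of this shared span could have been divided between both annotations, so the level of *gt1* is uncertain, and the part of this in its difference was not tested.

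*tb1* (AC233950.1_FG002, chromosome 1, 265745979 to 265747712) was at 1.29 RPKM in *lbl1* and 0.341 RPKM in WT, a 3.78-fold difference with a log2 fold change of 2.02. It passed the 1 RPKM filter only through its *lbl1* value, so that it could be counted only as higher. With 1 RPKM added to both values, the log2 fold change was 0.87, below the limit. The *lbl1* value corresponds to at most about 51 reads in both libraries together. The exact 95 percent Poisson interval around 51 is 38.0 to 67.1 and covers counting error only. Its lower end is likewise not a lower limit for the reads. The locus spans 1734 bp and overlaps no other gene of the table. Of the genes with a fold, 4.51 percent were at least as far up.

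The glume gene *tga1* (GRMZM2G101511, chromosome 4, 44508235 to 44512898) was at 1.30 RPKM in *lbl1* and 2.72 RPKM in WT. WT was 2.10-fold above *lbl1* as deposited, and the log2 fold change relative to the median gene was -0.97, just inside the limit. With values as deposited it was -1.07 and with scaling to the 75th percentile -1.03, both past the limit. Of the genes with a fold, 8.55 percent were at least as far down.

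**Figure D2:**
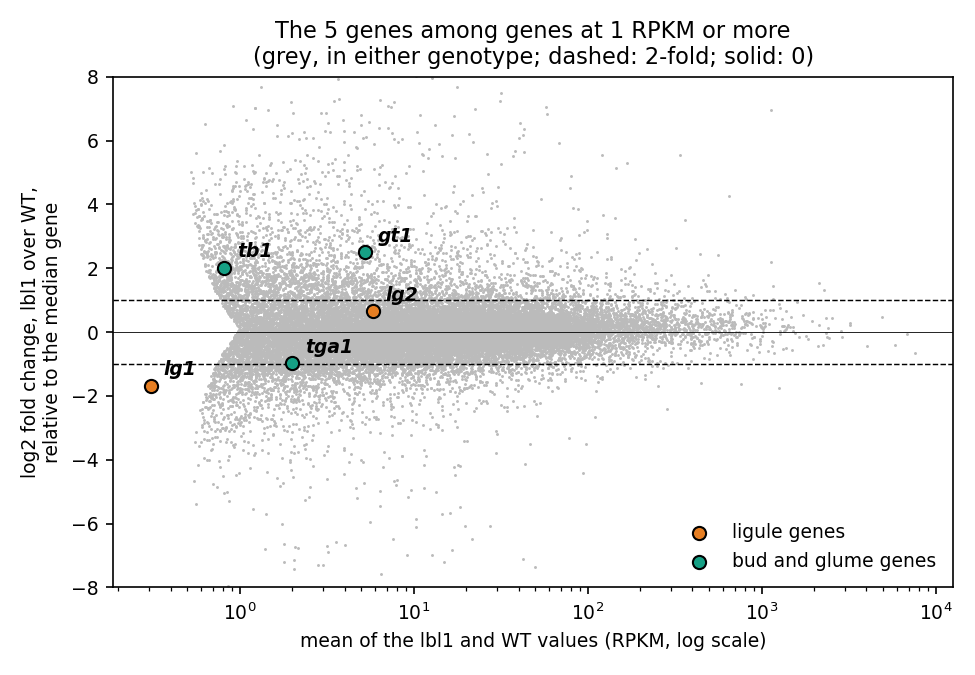
Log2 fold change, *lbl1* over WT and relative to the median gene, against the mean RPKM of both genotypes (log axis). Grey points are the genes at 1 RPKM or more in either genotype with a value above 0 in both, coloured points are the 5 regulators, dashed lines mark 2-fold, and 56 of the 28021 grey genes lie beyond the axis limits of 8. *gt1* (2.51) and *tb1* (2.02) lie above the upper line, in the range of low levels where the grey cloud is widest, and *lg1* (-1.68) is drawn although it was under the filter.

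The genes around these loci gave no common direction. Next to *lg2*, GRMZM2G060268, 6518 bp before it, was at 11.6 RPKM in *lbl1* and 5.24 RPKM in WT and past 2-fold higher, whereas GRMZM2G060027, 1216 bp after it, was at 36.2 RPKM in *lbl1* and 32.3 RPKM in WT. The nearest expressed genes beside *lg1* were AC210003.2_FG004, with 41.0 RPKM in *lbl1* and 85.9 RPKM in WT, and GRMZM2G019404, with 18.5 RPKM in *lbl1* and 10.4 RPKM in WT. Before *tb1*, at 115577 bp, GRMZM2G561180 was listed at 0 in *lbl1* and was at 30.5 RPKM in WT. The locus of GRMZM2G561180 runs only from 265630299 to 265630401. As RPKM is per unit of length, few reads can give a high value there, so its level is uncertain. GRMZM2G704032 after *tb1* was at 19.7 RPKM in *lbl1* and 17.6 RPKM in WT. Before *tga1*, GRMZM5G890688 was listed at 0 in *lbl1* and was at 6.81 RPKM in WT, and GRMZM5G896883 after it was at 18.0 RPKM in *lbl1* and 14.6 RPKM in WT. Outside the shared span of *gt1*, GRMZM2G005844 was at 8.27 RPKM in *lbl1* and 11.5 RPKM in WT, and GRMZM2G304809 at 0.578 RPKM in *lbl1* and 1.02 RPKM in WT. Of the 5 regulators 0 lie on chromosome 6, which carries *lbl1*.

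A list of 10 further symbols with roles in the ligule and in leaf regions gave 8 genes, all at 1 RPKM or more in either genotype. Of these, 2 were higher in *lbl1*, 0 were lower and 6 were neither, beside 13.7 percent higher and 11.4 percent lower among all genes. The class I KNOX gene *lg3* was at 51.3 RPKM in *lbl1* and 25.6 RPKM in WT, a 2.01-fold difference with a log2 fold change of 1.10. The TCP gene *bad1*, known for auricle and branch angle, was at 1.47 RPKM in *lbl1* and listed at 0 in WT, and no fold is given for it. The genes with the highest mean levels were *kn1*, *rs2* and *lg3*, and of these *kn1* and *rs2* were neither higher nor lower. *kn1*, the KNOX gene of the meristem, was at 122.5 RPKM in *lbl1* and 69.3 RPKM in WT. *rs2*, a MYB gene that keeps KNOX genes off in leaves, was at 39.0 RPKM in both. The median log2 fold change over the 7 genes with a fold was 0.45, with 6 above the median gene, beside 0.01 over all genes with a fold, of which 14143 were above and 13878 below. As *lg2* was at 0.65 and *lg1* at -1.68, the ligule regulators themselves lay on both sides of this median. Of the 7 genes, the KNOX genes *lg3* (1.10) and *kn1* (0.92) were furthest up. *lg4b* was at 0.72, *lg4a* at 0.45, *gn1* at 0.32, *rs2* at 0.10 and *lgn1* at -0.02. *kn1* and *gn1* were also counted among the meristem markers.

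**Figure D3:**
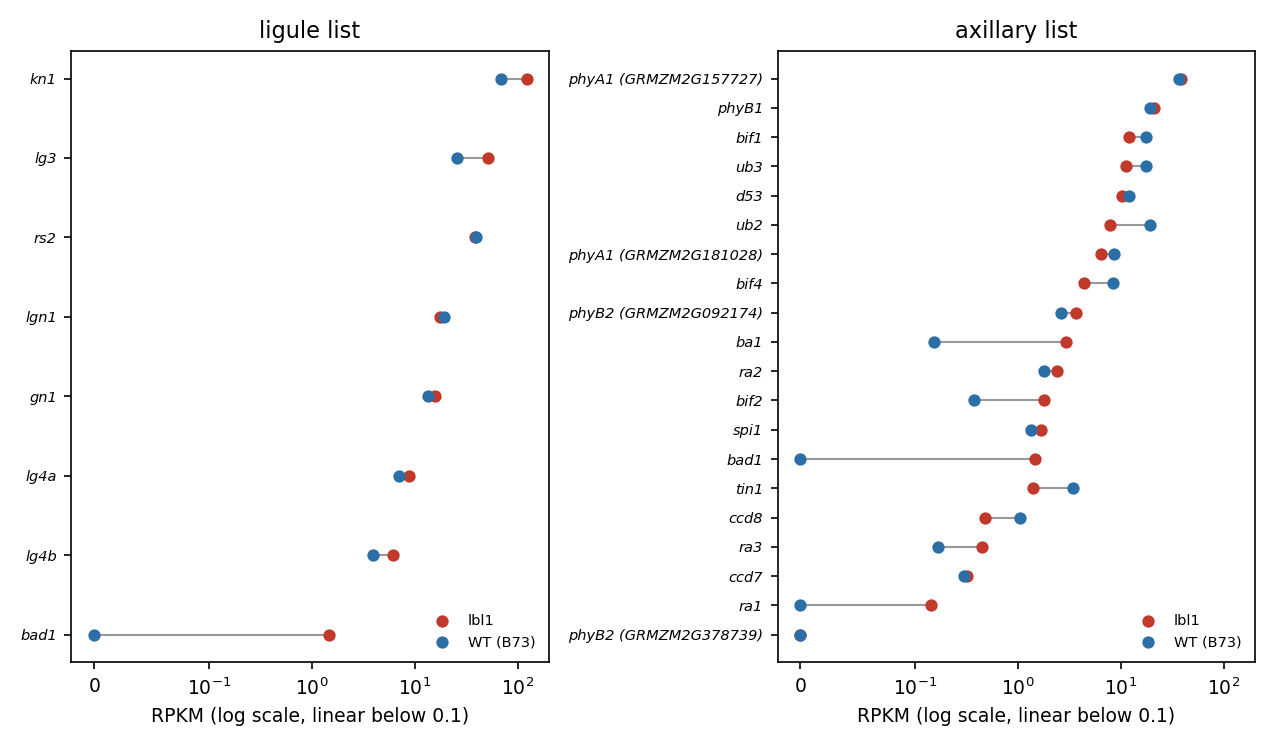
RPKM of the genes of the ligule list (left) and of the axillary list (right) in *lbl1* (red) and WT (blue), with 1 pooled value per genotype joined by a line, on an axis that is logarithmic above 0.1 RPKM and linear below. *bad1* lies at 1.47 RPKM in *lbl1* and at 0 in WT, and *ba1* at 2.95 RPKM in *lbl1* and 0.153 RPKM in WT.

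The axillary list held 24 symbols with roles in axillary meristems, bud outgrowth, branching, strigolactone and light sensing, of which 5 were not matched. Of its 20 genes 16 were at 1 RPKM or more in either genotype, and 3 of these were higher in *lbl1*, 3 lower and 10 neither. These are 18.8 percent in each direction, beside 13.7 percent higher and 11.4 percent lower among all genes. At low levels the shares of all genes were 20.8 percent higher and 18.6 percent lower. At a mean of 10 RPKM or more they were 6.92 percent higher and 4.45 percent lower. The axillary genes lay in both ranges. *ba1*, a bHLH gene needed for axillary meristems, was at 2.95 RPKM in *lbl1* and 0.153 RPKM in WT, which is 19.3-fold with a log2 fold change of 4.37. *bif2*, which encodes a PINOID-like kinase of auxin transport, was at 1.81 RPKM in *lbl1* and 0.376 RPKM in WT, 4.80-fold and at a log2 fold change of 2.36. *bad1*, on both lists, was the third. Like *tb1*, these genes passed the filter only through *lbl1*.

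Of the lower genes, *ub2*, an SBP-box gene that limits branch and kernel row number, was at 7.94 RPKM in *lbl1* and 19.3 RPKM in WT, with a log2 fold change of -1.18. *tin1*, a zinc finger gene of tillering, was at 1.40 RPKM in *lbl1* and 3.40 RPKM in WT, also at -1.18. *ccd8*, which acts in strigolactone synthesis, was at 0.477 RPKM in *lbl1* and 1.05 RPKM in WT, at -1.03, and passed the filter only through WT. The 3 genes with the highest mean of both genotypes were neither higher nor lower, although *ub2* in WT was as high as *phyB1*. The phytochrome gene *phyA1* (GRMZM2G157727) was at 38.8 RPKM in *lbl1* and 36.6 RPKM in WT, *phyB1* was at 21.2 RPKM in *lbl1* and 19.3 RPKM in WT, and the Aux/IAA gene *bif1* was at 11.9 RPKM in *lbl1* and 17.5 RPKM in WT. The median log2 fold change over 15 genes was -0.14, with 7 above and 8 below the median gene.

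Relatives of the 5 regulators were taken by symbol. Of 22 SBP genes, the family of *lg1* and *tga1*, 18 were at 1 RPKM or more in either genotype, and 0 of these were higher in *lbl1* and 4 lower. The lower genes were 22.2 percent, beside 11.4 percent of all genes. Among all genes the lower share was 18.6 percent at low levels and 4.45 percent at a mean of 10 RPKM or more. The SBP genes lay in both ranges. Their median log2 fold change was -0.41, and 13 of the 18 were below the median gene. *sbp21* (GRMZM2G148467) was lowest, at 1.52 RPKM in *lbl1* and 10.6 RPKM in WT, with a log2 fold change of -2.71, followed by *sbp29* (GRMZM2G067624) at 6.64 RPKM in *lbl1* and 33.5 RPKM in WT. The remaining lower genes were *ub2* and *sbp3* (GRMZM2G101499), and *sbp29* and *sbp3* were named after their values were seen. *sbp16*, with the highest mean, was at 69.2 RPKM in *lbl1* and 54.8 RPKM in WT. *lg1* and *tga1*, at -1.68 and -0.97, had the same sign as most of these relatives, and as *lg1* was under the filter and *tga1* inside the limit, neither counts as lower.

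Of 7 TCP genes with numbered symbols, the family of *tb1*, 0 were higher and 2 lower, with a median log2 fold change of 0.04. The lower genes were 28.6 percent, beside 11.4 percent of all genes, 18.6 percent of those at low levels and 4.45 percent of those at a mean of 10 RPKM or more. The TCP genes too lay in both ranges. Among all genes 13.7 percent were higher. *bad1*, a TCP gene without a numbered symbol and counted as higher above, was not on this list. *tcp30* was at 8.19 RPKM in *lbl1* and 40.5 RPKM in WT, with a log2 fold change of -2.21, and *tcp7*, whose mean of both genotypes was the highest although *tcp30* was above it in WT, was at 30.9 RPKM in *lbl1* and 19.1 RPKM in WT. Of 33 bZIP genes, the family of *lg2*, 26 were at 1 RPKM or more in either genotype, with 6 higher, 0 lower and a median of 0.17. Of the 6 higher genes, 4 were under 1 RPKM in WT and passed the filter only through *lbl1*. These 4 could be counted only as higher. The share of 23.1 percent higher stands beside 13.7 percent of all genes, of which 11.4 percent were lower. Among all genes the higher share was 20.8 percent at low levels and 6.92 percent at a mean of 10 RPKM or more. The bZIP genes lay in both ranges. *bzip9* was furthest up, at 4.75 RPKM in *lbl1* and 0.256 RPKM in WT, with a log2 fold change of 4.31. *bzip112* had the highest mean level, at 162.9 RPKM in *lbl1* and 12.1 RPKM in WT.

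**Figure D4:**
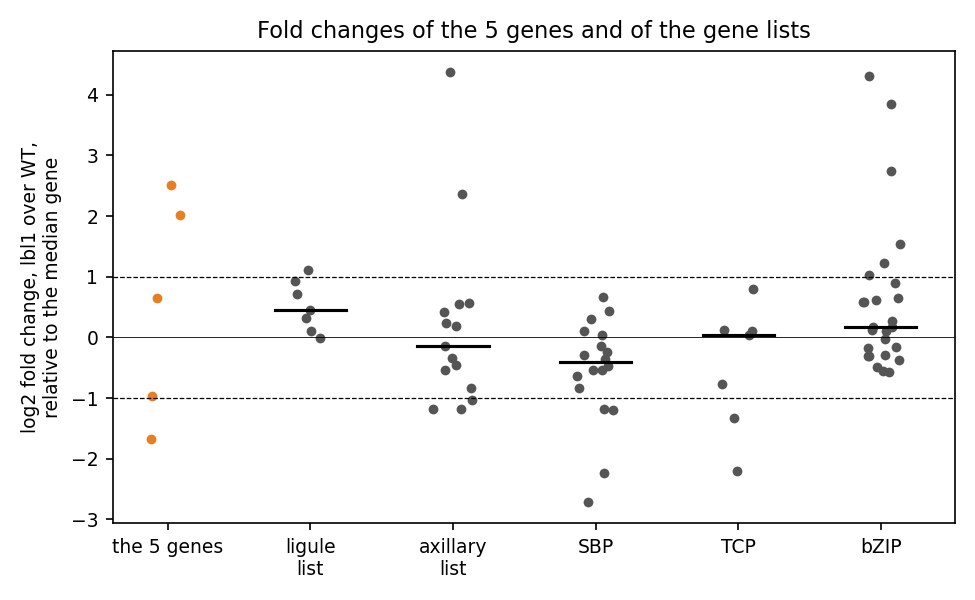
Log2 fold change, *lbl1* over WT and relative to the median gene, of the 5 regulators (orange) and of the list genes at 1 RPKM or more in either genotype with a value above 0 in both (grey). Bars are the medians of the lists, dashed lines mark 2-fold, and the points are spread sideways for visibility. The SBP list has its median at -0.41 and no gene above the upper line, whereas the axillary list has genes beyond both lines.

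With 1 value per genotype, the gene of most similar pattern was taken as the one nearest by Euclidean distance of log2(RPKM + 1) over these 2 values, among 1661 genes with a symbol in the table. For *gt1* it was *PSAH*, at 8.37 RPKM in *lbl1* and 1.80 RPKM in WT, and for *tb1* it was *M9009*, at 1.33 RPKM in *lbl1* and 0.374 RPKM in WT. For *lg1* it was *pFD2*, at 0.161 RPKM in *lbl1* and 0.427 RPKM in WT, for *lg2* it was *PPCK3*, at 6.70 RPKM in *lbl1* and 5.27 RPKM in WT, and for *tga1* it was *FDX5*, at 1.57 RPKM in *lbl1* and 2.69 RPKM in WT. Such likeness over 2 values describes the level and the fold only.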

How the data were processed

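Vegetative apices of *lbl1* and WT gave 2 mRNA samples per genotype, and the small RNA samples were not analysed here. Whether the samples came from separate plants or pools is not stated for the mRNA libraries. Per the study's methods and the submitters' processing notes, reads were trimmed and mapped to B73 RefGen_v2 with TopHat 1.2.0. The authors made RPKM values with Cuffdiff 1.0.3, and the deposited table gives 1 RPKM per genotype over both samples, with no values per sample from which to run a test. Its remaining columns hold the authors' own comparison (fold change, test statistic, p-value, q-value and call) and were not used, except for the mark of whether a gene had enough alignments (at least 50). Depth per sample was not used here.

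Folds were computed from the RPKM values with Python 3.11.15 and pandas 2.3.3, relative to the median gene and without a pseudocount. Starts were written counting from 1. The steps were tested on simulated data. The rule for the members uses no measured value, but the members and lists were chosen with earlier results of these data known. Named were all 5 members, *lbl1*, list genes past 2-fold or among the 3 highest, neighbouring genes and the gene of nearest pattern. The largest rise, largest fall and highest level of each family were named too, as were single tissue markers. Names came from the table and from RefSeq (NAM-5.0), which matched 18778 IDs, 4 of the 5 members among them. A gene of the ligule and meristem lists is not reported here and was left out of their counts. Families were taken by symbol, HD-ZIP relatives of *gt1* were not listed because their symbols mix several homeobox classes, and numbered bZIP genes stood in for the TGA genes. Another scaling, fold limit, filter and pseudocount were tried.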

Additional observations from a re-analysis of the deposited data

How the results depend on the processing

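The directions of the 5 genes were the same under every scaling and pseudocount tried. The log2 fold changes were 1.98 to 2.51 for *gt1*, 0.87 to 2.02 for *tb1* and 0.55 to 0.65 for *lg2*. They were -1.07 to -0.59 for *tga1* and -1.78 to -0.27 for *lg1*. These directions could hardly have changed. The scalings used shifts of only -0.10 to -0.04, and adding the same amount to both values keeps their order. The number of the 5 genes past 2-fold was 2, against 4 at 1.5-fold and 1 with 5 RPKM as the filter or with 1 RPKM added, and it was 3 without a filter or with values as deposited. At 1.5-fold 4 genes of the ligule list passed, against 2, and at 4-fold or with 5 RPKM only 1. In the axillary list 6 passed, against 3 at 4-fold and 1 with 5 RPKM. Of the SBP genes 4 passed, against 7 at 1.5-fold and 2 at 4-fold, alternatives that were chosen after seeing the data. Over all genes 7509 passed, against 12515 at 1.5-fold, 3765 at 4-fold, 19228 without a filter and 3471 with 5 RPKM. With values as deposited the split of all genes was 3761 higher and 3849 lower, against 4109 and 3400. Fewer genes pass at 4-fold or with 5 RPKM by construction. No paired analysis was possible because the table gives 1 value per genotype over its samples, and for the same reason replicates could not be left out in turn. With no value per sample, depth and spread limit each difference to a description of these pooled libraries.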
